A study of Mus musculus with 36 samples.

Results

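The genes described here belong to the families of the cornified envelope of mouse squamous epithelium, measured in bladder tumours and in bladder tumour cell lines. They were chosen by symbol: every row whose symbol starts with Sprr or Lce, with Ivl, Lor, Flg, Flg2, Crnn, Rptn, Tchh, Tgm1, Tgm3 and Cnfn. The rule found 40 of the 21705 genes in the table. They were 14 Sprr genes, 13 Lce1 and Lce6 genes, 4 Lce3 genes, the S100-fused genes Flg2, Crnn, Rptn and Tchh, the structural genes Ivl, Lor and Cnfn, and the transglutaminases Tgm1 and Tgm3. Flg was not analysed here. In the annotation, 37 of the 40 genes lie on chromosome 3, most of them in the epidermal differentiation complex, while Tgm3 lies on chromosome 2, Cnfn on chromosome 7 and Tgm1 on chromosome 14.

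The cornified envelope is a sheet of cross-linked protein that replaces the plasma membrane of a squamous cell in its last stage of differentiation. Transglutaminases join involucrin (Ivl) to membrane scaffold proteins first, and small proline-rich proteins (Sprr), loricrin (Lor) and late envelope proteins (Lce) are added later, during terminal cornification. Normal bladder is lined by urothelium, which does not cornify, and squamous differentiation is a known feature of a share of bladder cancers, those of the basal class above all.

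RNA was sequenced from 36 mouse libraries: 9 UPPL primary tumours, 11 BBN primary tumours, 10 tumours grown from cell lines, and 6 cultured lines. UPPL tumours were labelled untreated and carried alleles that include Upk3a-CreERT2, floxed p53 (p53f/f) and the reporter Rosa26LSL-Luc. In such mice the Upk3a promoter, active in urothelium, drives a Cre recombinase that tamoxifen activates, and Cre removes p53 and switches on a luciferase reporter. BBN tumours carried the genotype label Ctrl and arose under N-butyl-N-(4-hydroxybutyl)nitrosamine, a bladder carcinogen. The line-derived tumours were 4 from UPPL1541, which carried the UPPL genotype label, 2 from BBN963 and 4 from MB49, a widely used mouse bladder cancer line; the last 2 lines carried the label Ctrl, and all 3 were labelled untreated. The cultures were 1 each of UPPL1541, BBN963 and MB49 and the lines KT1044, KT1970 and KT1975, all labelled Ctrl and untreated, UPPL1541 included. Strain, sex and age of the mice, and the host and site of the line-derived tumours beyond the source name bladder tumor, are not given in the sources used here. Each line-derived group comes from a single line, so a difference between such groups is a difference between lines, and nothing says whether tumours of one line came from separate mice; p-values then measure only the spread between these samples.

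Values are the authors' gene-level RSEM estimates, scaled in each library so that the upper quartile is 1000, and are called normalised abundance below. They are not divided by gene length, so levels are compared between libraries and never between genes. Recovered depth ran from 9294386 to 17926590 reads per library, at which 1 read is worth 0.786 to 1.46 units. In 5 libraries the most frequent low value was worth 10 reads or more (BBN963-derived tumour 1, MB49-derived tumour 1, and primary tumours BBN962, UPPL1595 and UPPL1597), so low values are coarse there. Summed basal and pan-epithelial markers ranged from 119177 to 656962 in UPPL and from 241983 to 531464 in BBN primary tumours, but from 16156 to 26315 in MB49-derived tumours, where Krt5, a basal keratin, did not exceed 11.7. Summed superficial urothelial markers had a median of 19295 in UPPL and 2606 in BBN primary tumours, and Upk1a, Upk1b, Upk2, Upk3a and Upk3b, the uroplakins of the urothelial surface, were all listed at 0 in both BBN963-derived tumours. Hair follicle markers, which would mark contaminating skin, summed to 0 in BBN963-derived tumours. They summed to at most 7.1 in UPPL1541-derived, 23.5 in MB49-derived and 25.3 in BBN primary tumours. In UPPL primary tumours the sum had a median of 74.8 and reached 491.6. There it came almost wholly from Dsg4 (mean 129.51), with Krt33a at a mean of 0.69 and the other 9 markers found listed at 0 throughout. In bulk tumours, fewer squamous cells and less RNA per cell cannot be told apart.

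Promoter sequences are shown for genes of the complex that moved in opposite directions in a comparison that follows. RefSeq promoter windows (build GRCm38.p6, 250 bases before to 50 after the annotated start) were found for 37 of the 40 genes, all but Lce1f, Sprr2g and Sprr2j-ps. Shown are the 200 bases before the start of 3 genes that fell from UPPL primary to UPPL1541-derived tumours (Ivl, Sprr2a1, Sprr2f) and of 2 that rose (Lor, Lce3f), each 5′ to 3′ on the gene's own strand, with capitals for the TATA box letters TATAAA and the AP-1 site letters TGANTCA. The windows are chr3:92573736-92573935 on the minus strand for Ivl, chr3:92215635-92215834 on the plus strand for Sprr2a1, chr3:92364987-92365186 on the plus strand for Sprr2f, chr3:92083143-92083342 on the minus strand for Lor and chr3:92992017-92992216 on the plus strand for Lce3f.
Ivl: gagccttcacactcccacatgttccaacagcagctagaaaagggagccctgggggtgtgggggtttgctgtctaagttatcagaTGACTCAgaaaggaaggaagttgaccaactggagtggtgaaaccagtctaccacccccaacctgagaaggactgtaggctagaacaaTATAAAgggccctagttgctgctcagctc
Sprr2a1: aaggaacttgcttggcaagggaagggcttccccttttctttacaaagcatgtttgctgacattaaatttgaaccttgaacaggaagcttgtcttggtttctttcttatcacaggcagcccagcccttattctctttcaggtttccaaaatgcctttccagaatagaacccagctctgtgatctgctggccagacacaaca
Sprr2f: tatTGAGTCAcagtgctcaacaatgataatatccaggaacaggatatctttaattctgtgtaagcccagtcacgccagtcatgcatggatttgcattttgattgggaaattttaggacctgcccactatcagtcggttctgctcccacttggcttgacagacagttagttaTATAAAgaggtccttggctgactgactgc
Lor: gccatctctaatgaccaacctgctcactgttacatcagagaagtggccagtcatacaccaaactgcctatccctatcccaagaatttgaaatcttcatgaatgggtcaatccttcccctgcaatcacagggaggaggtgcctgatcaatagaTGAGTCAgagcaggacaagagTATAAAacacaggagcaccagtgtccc
Lce3f: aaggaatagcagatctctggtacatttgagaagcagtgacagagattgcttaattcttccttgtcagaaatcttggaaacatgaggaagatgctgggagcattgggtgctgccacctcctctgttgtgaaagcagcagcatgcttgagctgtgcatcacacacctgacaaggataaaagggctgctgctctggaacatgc
Ivl, Sprr2f and Lor held both sets of letters in these stretches, and Sprr2a1 and Lce3f held neither. TGANTCA, the AP-1 letters, read on both strands of the whole window, occurred in 9 of 12 Sprr promoters, in 5 of the 9 promoters outside the Sprr and Lce families and in 0 of 16 Lce promoters. Over all 37 promoters the share was 37.8%, against 7.9% of the 27025 promoters in the RefSeq table. TATAAA occurred in 10 of 12 Sprr and 3 of 16 Lce promoters, or 48.6% of the 37 against 14.2% of all promoters. The Grainyhead-type letters AACCNGTT occurred in 2.7% of the 37 and 2.0% of all promoters, and the KLF-type letters GGGNGNGG in 29.7% and 49.1%. Overlapping matches of different motifs were counted for each. These are matches of letters in a fixed window, not shown to be bound.

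The map of all values gives the 40 genes in the 36 libraries. In the 26 tumours that were not MB49, Sprr1a was never below 723, Sprr2a1 never below 2174 and Ivl never below 612. The Lce3 genes were high in every UPPL1541-derived and BBN963-derived tumour and listed at 0 in 3 to 5 of the 9 UPPL and 4 of the 11 BBN primary tumours, and most Lce1 genes were listed at 0 in most primary tumours. In MB49 nearly every gene was at or near 0: between 8 and 12 of the 40 genes were above 0 in its 4 tumours, and 4 in its culture. Together the 40 genes held 1.15% to 3.53% of all abundance in UPPL primary tumours, 0.484% to 1.43% in BBN primary tumours, 0.321% to 0.462% in UPPL1541-derived, 0.911% to 0.988% in BBN963-derived and at most 0.005% in MB49-derived tumours. Sprr2a1 alone held 0.657% to 2.18% of abundance in the UPPL primary tumours.

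**Figure D1:**
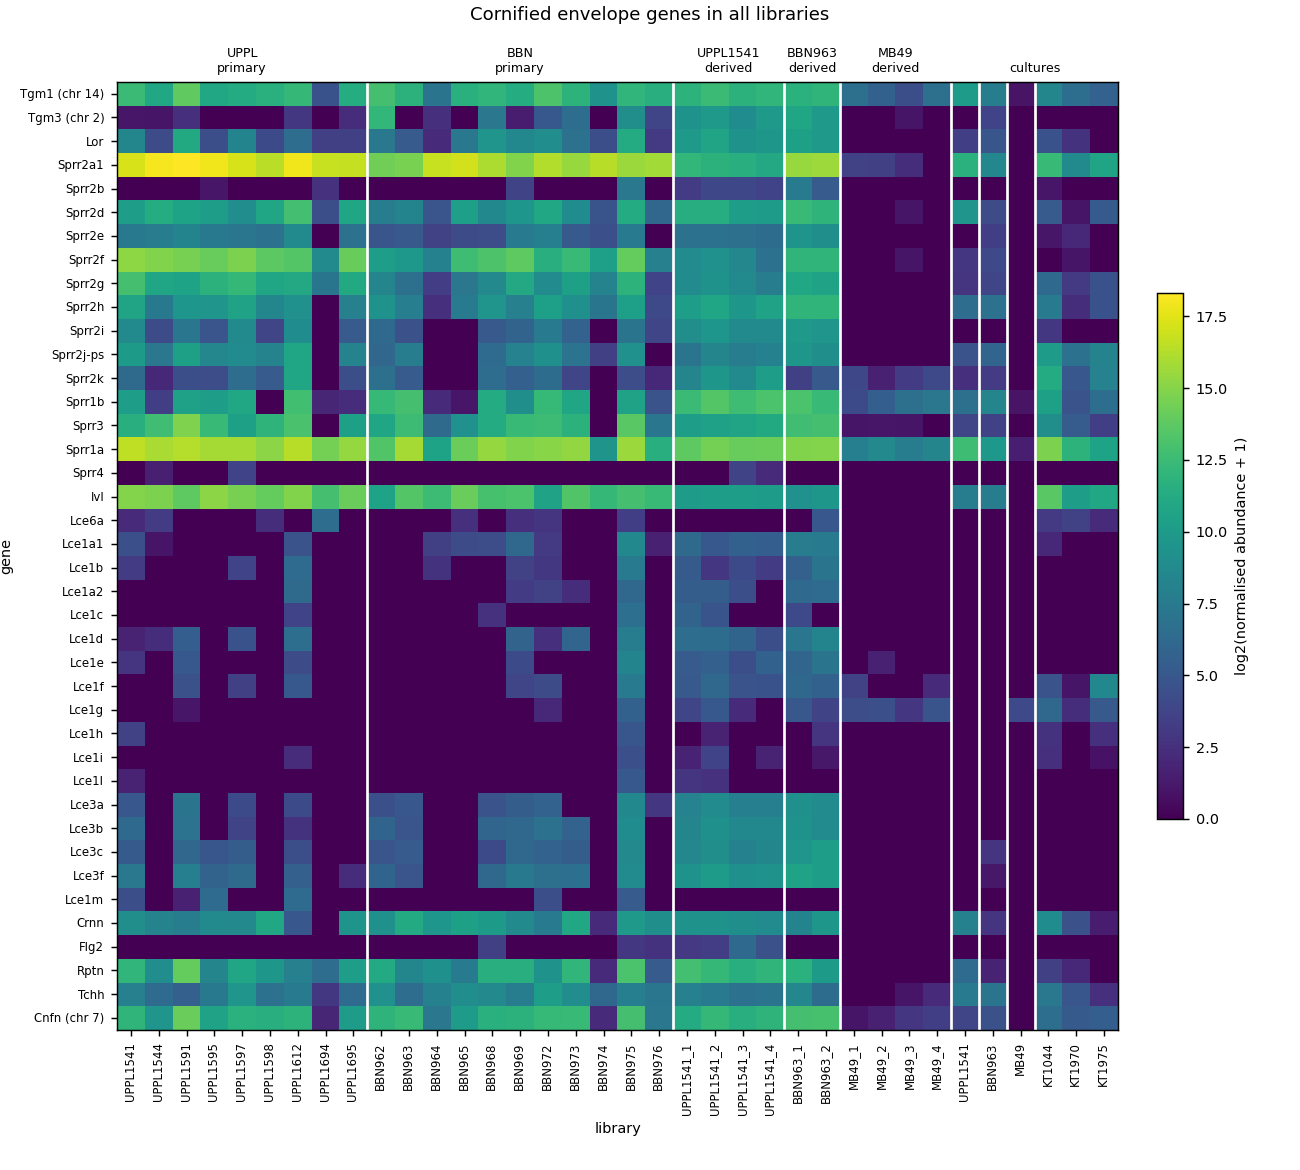
Normalised abundance of the 40 cornified envelope genes (rows; Tgm1 and Tgm3 first, then chromosome 3 in annotated order, then Cnfn) in the 36 libraries (columns, by group), as log2(value + 1) by colour. MB49-derived tumours and the MB49 culture are dark in nearly every row. Most Lce rows are lit in the UPPL1541-derived and BBN963-derived tumours and in BBN975, and several Lce1 rows in UPPL1612. UPPL1694 is dark in more rows than the other UPPL primary tumours.

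The first comparison asks how the 2 primary tumour models differ. In primary tumours, involucrin and 4 Sprr genes were higher in UPPL than in BBN, and no gene of the 23 tested was lower. Genes were tested with limma on log2(value + 1), with Benjamini-Hochberg adjustment over every gene that passed the low-value filter and a threshold of 0.05, and log2 differences below are on that scale. Of all 12818 genes tested, 18.5% were called in either direction and 5.71% were higher in UPPL, against 5 of 23 (21.7%) envelope genes higher. The 23 genes had a median log2 difference of 0.64, against −0.191 over all genes. The other 17 of the 40 did not pass the filter, all Lce1 genes and Tgm3 among them. The share of called genes that were higher in UPPL was 30.9%, and 48.6% with median-of-ratios scaling, 48.7% with quantile normalisation and 55.1% with edgeR on recovered reads.

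Ivl, the early envelope precursor, ranged from 7691 to 35266 in the 9 UPPL tumours (median 24502) and from 1513 to 17600 in the 11 BBN tumours (median 7911). UPPL1694 was the lowest UPPL tumour, and BBN965 was the highest BBN tumour. The log2 difference was 1.77 ± 0.393 (SE; limma, adjusted p = 0.0041), and the groups overlapped. Lor, the main late structural protein of the epidermal envelope, did not pass: it ranged from 9.99 to 2251 in UPPL (median 19.9) and from 3.6 to 2449 in BBN (median 160.7), a log2 difference of −0.80 ± 1.14 (limma, adjusted p = 0.66). Cnfn, an envelope protein outside the complex, had medians of 2810.0 in UPPL and 3490 in BBN and did not pass (log2 difference 0.17 ± 1.36, limma, adjusted p = 0.95).

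Among the Sprr genes, most of which encode proline-rich bridging proteins, Sprr2a1 had the smallest SE. In the annotation Sprr2g and Sprr2j-ps are transcribed pseudogenes. It ranged from 90353 to 328520.3 in UPPL (median 155806) and from 20755 to 140491 in BBN (median 56625), a log2 difference of 1.66 ± 0.369 (limma, adjusted p = 0.0041). Of the 50-base stretches of its annotated transcript, 96.3% also occur in Sprr2a2, Sprr2a3 or Sprr2b, and the table has a row for Sprr2a1 only of the 3 near-identical Sprr2a copies, so this value may stand for several copies. Sprr1a ranged from 22789 to 99731 in UPPL (median 60492) and from 723 to 58725 in BBN (median 29764), with BBN964, BBN974 and BBN976 under 3000.0. Its log2 difference was 2.03 ± 0.704 (limma, adjusted p = 0.047), next to the threshold. Sprr2f ranged from 432 to 37977 in UPPL (median 17184) and from 252 to 16252 in BBN (median 2833), a log2 difference of 2.45 ± 0.836 (limma, adjusted p = 0.044). Sprr2g ranged from 139 to 7623 in UPPL (median 2162) and from 9.00 to 3704 in BBN (median 319), a log2 difference of 2.90 ± 0.933 (limma, adjusted p = 0.034). UPPL1694 was the lowest UPPL tumour for Sprr1a, Sprr2f and Sprr2g.

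Ivl and Sprr2a1 kept their call under each of the 30 alternatives run, while Sprr1a lost it under 18, Sprr2f under 19 and Sprr2g under 11. The count of genes higher in UPPL ran from 2 to 8 when single tumours were left out. It was 8 without UPPL1694; 3 without BBN962, BBN963, BBN965, BBN974, UPPL1544, UPPL1591, UPPL1598 or UPPL1612; and 2 without BBN964, BBN976, UPPL1541, UPPL1595, UPPL1597 or UPPL1695.

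The remaining Sprr genes did not pass. Sprr2d, Sprr2e, Sprr2i and Sprr2j-ps had log2 differences of 1.75, 1.76, 1.56 and 2.82 with limma adjusted p from 0.17 to 0.38. Sprr3, best known from oral and oesophageal epithelium, ranged from 0 to 28144 in UPPL and from 0 to 12673 in BBN, and Sprr1b from 0 to 6864 and from 0 to 7582. Their log2 differences were 1.0 ± 1.67 and −1.0 ± 2.0 (limma, adjusted p = 0.71 and 0.76).

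No Lce3 gene passed, and all 4 were lower on average in UPPL, by −0.31 to −1.85 on the log2 scale (limma, adjusted p from 0.34 to 0.90). Lce3f was listed at 0 in 3 of 9 UPPL and 4 of 11 BBN tumours, with its highest value, 450.1, in BBN975. BBN975 was also the highest BBN tumour for each of the 12 Lce1 genes. Among the S100-fused genes, Tchh (trichohyalin, of hair follicle and tongue) had medians of 112 in UPPL and 258 in BBN and a log2 difference of −1.41 ± 0.623 that did not pass adjustment (limma, unadjusted p = 0.034, adjusted p = 0.12). Crnn (cornulin) had medians of 399 and 777 and Rptn (repetin) of 847 and 693, and neither passed (limma, adjusted p = 0.39 and 0.73). Tgm1, the membrane-bound transglutaminase that starts the envelope, had medians of 2609 in UPPL and 3517 in BBN (log2 difference −0.31 ± 0.874, limma, adjusted p = 0.83).

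The other lists were tested between the primary models in the same way. Of 12 tested genes of the complex's other families and S100 genes none was called, and likewise 0 of 11 envelope lipid enzymes, 0 of 12 differentiation regulators and 0 of 7 suprabasal keratins. Single genes were higher in UPPL among the scaffold and junction proteins (Ppl, 1 of 14) and among proteases, inhibitors and deiminases (Prss8, 1 of 10). Superficial urothelial markers were higher in UPPL for 4 of 6 genes, with a median log2 difference of 4.06. Of 8 basal and pan-epithelial markers 2 were higher in UPPL, Krt8 by 2.87 and Krt18 by 2.27 (limma, adjusted p = 0.0034 and 0.01). Leukocyte markers were lower in UPPL for 2 of 4 genes, smooth muscle markers for 2 of 5 and fibroblast markers for 1 of 7. Summed fibroblast markers ran from 364 to 6842 in UPPL and from 296 to 56473 in BBN tumours; their part in the differences of the envelope genes was not tested.

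**Figure D2:**
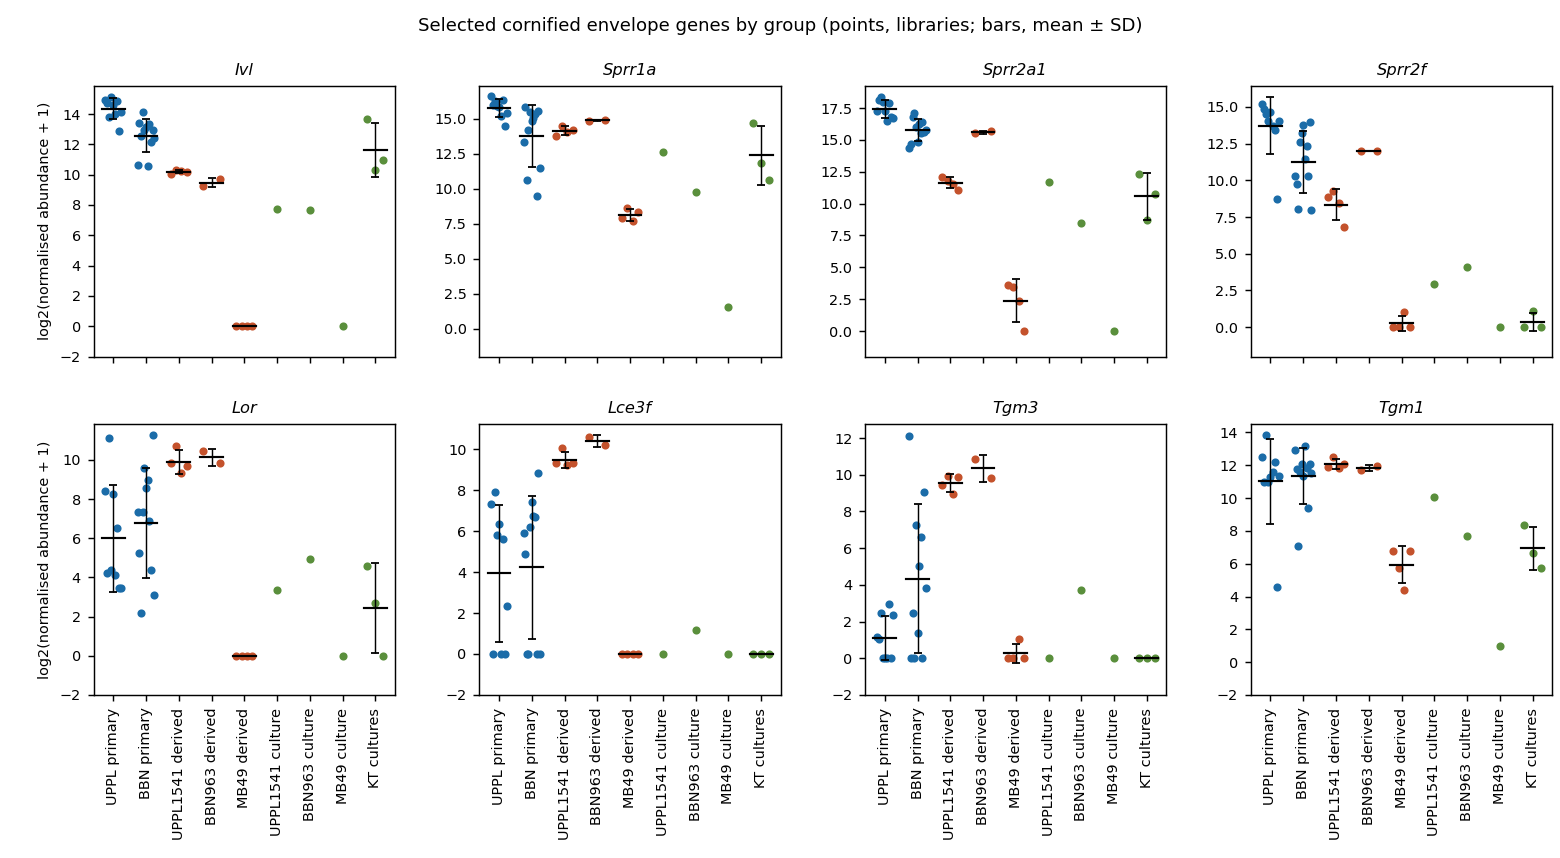
Log2(normalised abundance + 1) of 8 genes in each library by group; points are libraries, coloured by primary tumour, line-derived tumour or culture, and bars give the mean ± SD of groups with more than 1 library. Ivl, Sprr2a1 and Sprr2f sit lower in UPPL1541-derived than in UPPL primary tumours, while Lor, Lce3f and Tgm3 sit higher in line-derived UPPL1541 and BBN963 tumours than in most primary tumours.

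The next comparison sets the UPPL1541-derived tumours against the UPPL primary tumours. Involucrin, Sprr2a1 and Sprr2f fell, while all 4 Lce3 genes, Lor and Tgm3 were higher in the tumours grown from the line. Sprr2g overlapped between the groups (−2.27 ± 1.15, limma, adjusted p = 0.14). Of the 39 genes tested 13 rose and 3 fell. Over all 15229 genes 20.5% rose and 5.98% fell (26.5% either way), against 13 of 39 and 3 of 39 envelope genes. The median log2 difference was 2.24 for the 39 genes and 0.366 for all genes. Of called genes 77.4% were higher, and 64.7% with median-of-ratios scaling, 51.1% with quantile normalisation and 52.3% with edgeR, and the number of envelope genes that rose was then 12, 7 and 4.

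Ivl was 1062, 1263, 1191 and 1139.6 in the 4 UPPL1541-derived tumours, against 7691 to 35266 in the primary tumours. The groups did not overlap, and the log2 difference was −4.15 ± 0.479 (limma, adjusted p = 8.4e-07). Sprr2a1 was 4449, 3568, 2968 and 2174 against 90353 to 328520.3, again without overlap, a log2 difference of −5.78 ± 0.451 (limma, adjusted p = 1.3e-09). Sprr2f was 462, 608, 356 and 113 against 432 to 37977; only UPPL1694 among the primary tumours reached down to the derived values. Its log2 difference was −5.35 ± 1.04 (limma, adjusted p = 0.00043). These 3 calls held under each of the 36 alternatives run.

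Tgm3, a transglutaminase that works in the cytosol of cornifying cells, was 689, 983, 488 and 939.6 in the derived tumours and no higher than 6.65 in any UPPL primary tumour. The log2 difference was 8.44 ± 1.61 (limma, adjusted p = 0.00035), and it too was called under each alternative. The Lce3 genes, a cluster linked to barrier repair and to psoriasis, were also higher in derived tumours. Lce3f was 632, 1048, 589.8 and 639 in derived tumours and 0 to 243 in primary tumours. Lce3a was 279.6, 454, 245 and 237 against 0 to 133, Lce3b 315, 589, 379.9 and 368 against 0 to 125, and Lce3c 351, 536, 267 and 335 against 0 to 64.3. None of the 4 overlapped between groups, and their log2 differences were 5.95 ± 1.49 for Lce3a, 6.47 ± 1.61 for Lce3b, 5.62 ± 1.51 for Lce3c and 5.54 ± 1.73 for Lce3f, with limma adjusted p of 0.0041, 0.004, 0.0071 and 0.019. With edgeR on recovered reads Lce3a, Lce3b and Lce3f did not pass (adjusted p from 0.053 to 0.071), and Lce3f did not pass without UPPL1541-derived tumour 2.

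Lor was 921, 1681, 636 and 824 in derived tumours, above 8 of the 9 primary tumours, with UPPL1591 at 2251. Its log2 difference of 3.89 ± 1.39 (limma, adjusted p = 0.039) was lost under 14 of 36 alternatives. Lce1a1, Lce1e, Lce1f and Lce1g rose, as did Sprr2b and Flg2. Flg2, a filaggrin relative, was listed at 0 in all 9 primary tumours and was 7.17, 9.13, 77.0 and 22.6 in the derived ones (limma, adjusted p = 7.2e-05). Genes under 10 units in every UPPL primary tumour, Flg2, Sprr2b and Tgm3 among them, entered the test through other groups. They could hardly come out lower in derived tumours. Sprr2k was 324, 847, 415 and 1244 against 0 to 1775 in primary tumours, where only UPPL1612 exceeded 100 (log2 difference 4.37 ± 1.48, limma, adjusted p = 0.03).

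Several abundant members did not pass. Sprr1a was 14080.1, 23443, 17148 and 19243 against 22789 to 99731, a log2 difference of −1.64 ± 0.862 (limma, adjusted p = 0.16). Sprr1b was 5762, 10993, 6222 and 9181 against 0 to 6864 (5.98 ± 2.43, limma, adjusted p = 0.069). Tgm1, Cnfn, Crnn, Rptn, Tchh and Sprr3 had log2 differences between −0.16 and 2.27 with limma adjusted p from 0.25 to 0.97. Leaving out UPPL1541-derived tumour 2 cut the number of genes that rose from 13 to 7; leaving out any other single library gave 9 to 16.

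Genes of other lists also differed. Among scaffold and junction proteins 7 of 14 rose, among them the desmosomal cadherins Dsg1a (log2 difference 7.46, limma, adjusted p = 0.00055) and Dsc1 (6.38, limma, adjusted p = 0.013). Of 11 proteases, inhibitors and deiminases 5 rose and 2 fell, of 14 neighbours and S100 genes 5 rose, and of 8 suprabasal keratins 3 rose, Krt10 by 7.21 (limma, adjusted p = 0.00055). Of 11 lipid enzymes 1 rose. Of 12 differentiation regulators 4 rose and 2 fell; Grhl3, a Grainyhead factor of barrier formation, fell by 1.74 on the log2 scale (limma, adjusted p = 0.018), and Maf was 3.0 higher (limma, adjusted p = 0.00033). Superficial urothelial markers fell for 4 of 6 genes and rose for 1, Krt20. Of 8 basal and pan-epithelial markers 5 fell and none rose (median log2 difference −2.14), among them Krt8 (log2 difference −3.85) and Krt18 (−4.31; limma, adjusted p = 0.00054 and 8.2e-05). All 7 fibroblast markers rose, with summed values of 74911 to 372774 in derived against 364 to 6842 in primary tumours, and 5 of 7 leukocyte markers rose; their part in the differences of the envelope genes was not tested.

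**Figure D3:**
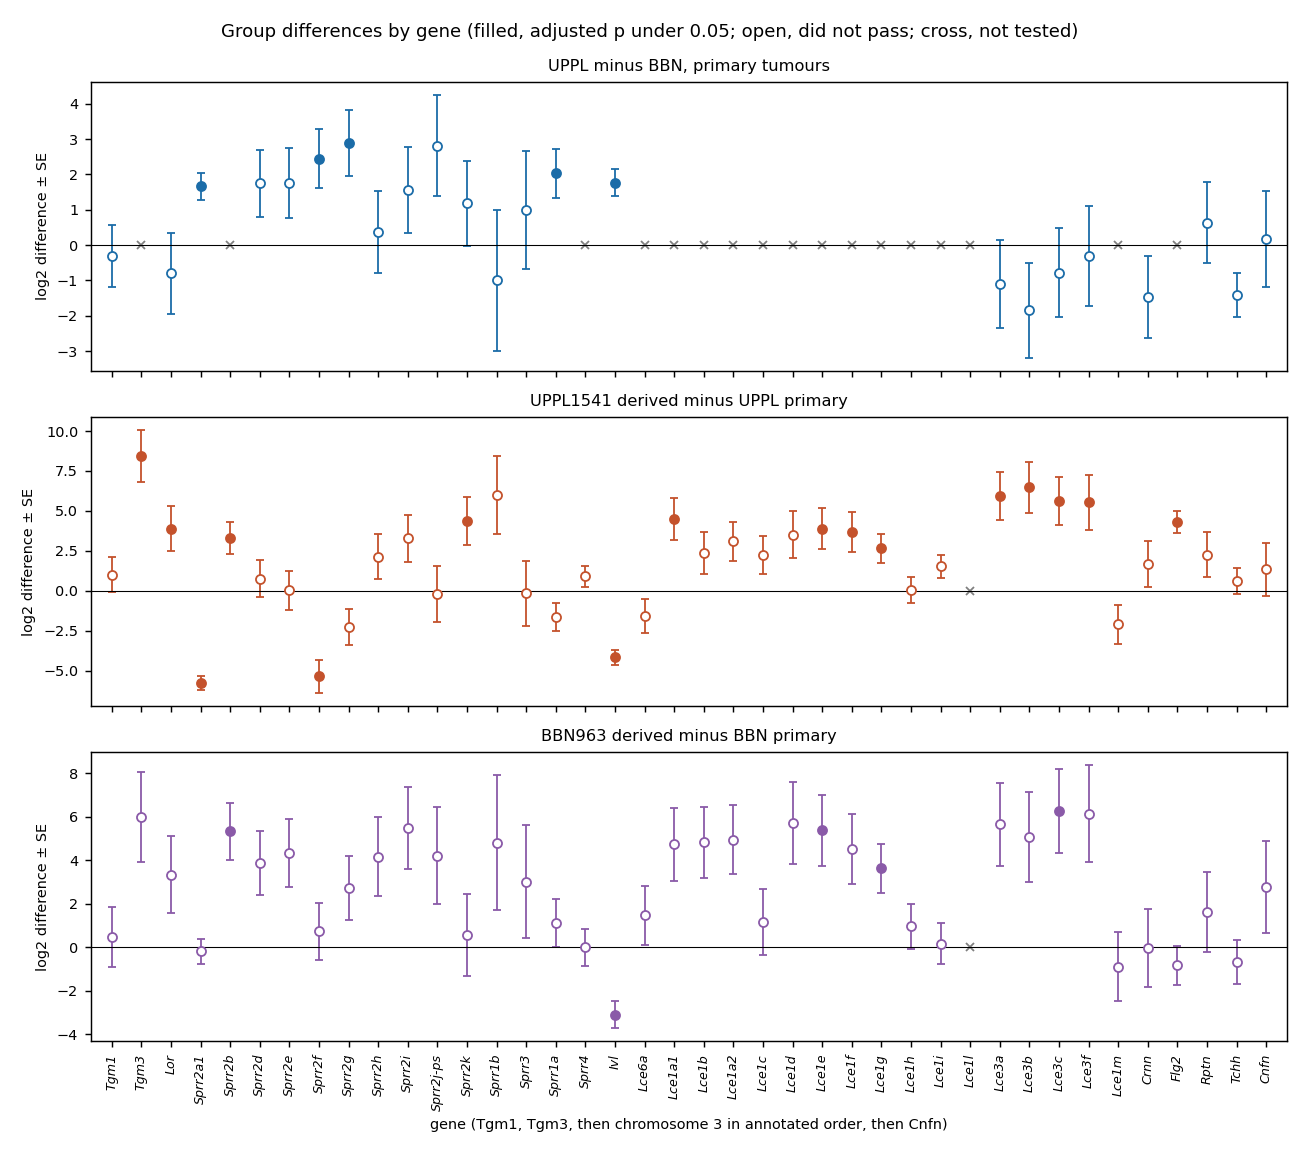
Log2 difference ± SE (limma) for each gene in annotated order in 3 comparisons; filled points have an adjusted p under 0.05, open points do not, and crosses were not tested. In the UPPL1541 panel Sprr2a1, Sprr2f and Ivl lie below 0 and the Lce3 genes, Lor and Tgm3 above it, and in the BBN963 panel Ivl lies below 0 and Sprr2a1 near it.

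In the BBN963-derived tumours involucrin fell as well, but Sprr2a1 and Sprr2f did not change by the test. Of 39 genes 4 rose (Lce3c, Lce1e, Lce1g, Sprr2b) and 1 fell (Ivl) against the BBN primary tumours. Over all genes 2.09% rose and 5.67% fell (7.76% either way). The median log2 difference of the 39 was 3.34, against −0.167 for all genes. Of called genes 26.9% were higher, and 33.6% to 42.9% under the 3 other scalings.

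Ivl was 612 and 822 in the 2 derived tumours and 1513 to 17600 in the 11 primary tumours, without overlap, a log2 difference of −3.10 ± 0.613 (limma, adjusted p = 0.002). Without BBN963-derived tumour 1 it no longer passed (limma, adjusted p = 0.094). Sprr2a1 was 46684 and 51959.6 within the primary range of 20755 to 140491 (−0.17 ± 0.577, limma, adjusted p = 0.90), and Sprr2f was 4066 and 4050.3 within 252 to 16252 (0.73 ± 1.33, limma, adjusted p = 0.78). Lce3c was 770.3 and 1229 against 0 to 387 (6.28 ± 1.93, limma, adjusted p = 0.044). Lce3a was 586 and 447 against 0 to 376, and Lce3f 1543 and 1156 against 0 to 450.1; both lay above every primary tumour and did not pass (limma, adjusted p = 0.067 and 0.087). Tgm3 was 1854 and 907 against 0 to 4488, with BBN962 the highest primary tumour (6.0 ± 2.06, limma, adjusted p = 0.071). Lor was 1395 and 914 against 3.6 to 2449 (3.34 ± 1.78, limma, adjusted p = 0.26).

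With 2 derived tumours these counts were unstable. The number of genes that rose was 0 without BBN963-derived tumour 1; 1 without BBN963-derived tumour 2, BBN964, BBN965, BBN968, BBN974 or BBN976; 2 without UPPL1541-derived tumour 3; 8 without UPPL1694; and 11 without BBN975. Without the 5 coarse libraries it was 0, a fit in which the lone BBN963-derived tumour is assumed to vary like the other groups. Among the other lists, basal and pan-epithelial markers fell for 4 of 8 genes and superficial urothelial markers for 3 of 6, while 1 of 7 fibroblast markers (Col1a1) and 1 of 7 leukocyte markers (Cd3e) rose. Summed fibroblast markers were 87000.0 and 114665 against 296 to 56473 in primary tumours; their part was not tested. None of the suprabasal keratins, lipid enzymes or scaffold and junction proteins passed.

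Whether the change from primary to line-derived tumours differed between UPPL and BBN was tested as an interaction. Each model has 1 line here, so the test compares UPPL1541 with BBN963 and does not reach the models at large. For Sprr2a1 the UPPL change was lower than the BBN change by a log2 difference of −5.61 ± 0.733 (limma, adjusted p = 2.6e-05), and it kept this call under each of 36 alternatives. For Sprr2f it was −6.08 ± 1.69 (limma, adjusted p = 0.025), lost under 4 of 36: without either BBN963-derived tumour, without UPPL1541-derived tumour 4 and without the 5 coarse libraries. For Flg2 it was 5.13 ± 1.15 (limma, adjusted p = 0.0069), from values of at most 77.0, and it was lost under 4 of 35, among them edgeR, quantile normalisation and without BBN963-derived tumour 1. Flg2 was listed at 0 in all UPPL primary and both BBN963-derived tumours, so its difference could not come out lower. Of 39 genes tested, 1 was called higher and 2 lower, against 8.16% and 1.06% of all 15229 genes (9.22% either way). The number called lower was 1 without BBN963-derived tumour 1 or 2 or UPPL1541-derived tumour 4, and 4 without UPPL1694. The all-gene median of this interaction was 0.554, and 0.254 with median-of-ratios scaling; with that scaling 68.2% of called genes were higher against 88.5%. Ivl fell in the tumours of both lines, and the difference between the falls did not pass (−1.06 ± 0.778, limma, adjusted p = 0.41). Nor did it for the Lce3 genes (from −0.66 to 1.40, limma, adjusted p from 0.89 to 0.95 for 3 of them and 0.78 for Lce3b), for Lor (0.54 ± 2.26, adjusted p = 0.90 by limma) or for Tgm3 (2.44 ± 2.61, adjusted p = 0.58 by limma). The intervals are wide, and a missed threshold does not show that the lines act alike.

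Compared directly, UPPL1541-derived and BBN963-derived tumours differed in 11 envelope genes, of which 7 are Sprr2 genes. Of 34 genes tested 9 were lower in UPPL1541 (Sprr2a1, Sprr2b, Sprr2e, Sprr2f, Sprr2g, Sprr2h, Sprr3, Lce1a1, Lce1b) and 2 higher (Sprr2k, Flg2). Flg2 was listed at 0 in both BBN963 tumours and entered the test through UPPL1541, so it could not come out lower. Over all 14604 genes 7.37% were lower and 21.4% higher (28.8% either way), against 9 of 34 and 2 of 34 envelope genes. The median log2 difference was −1.08 for the 34 and 0.323 for all genes. Of called genes 74.4% were higher, and 59.7%, 52.3% and 53.6% with median-of-ratios scaling, quantile normalisation and edgeR, under which 13, 12 and 14 envelope genes were lower.

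Sprr2a1 was 2174 to 4449 in the 4 UPPL1541 tumours and 46684 and 51959.6 in the BBN963 tumours, a log2 difference of −3.95 ± 0.799 (limma, adjusted p = 0.0045). Sprr2f was 113 to 608 against 4066 and 4050.3 (−3.63 ± 0.677, limma, adjusted p = 0.003). Sprr3 was 1231, 1412, 1676 and 2209 against 6717 and 7634 (−2.17 ± 0.412, limma, adjusted p = 0.0032). Sprr2e was 121, 119, 109 and 88.1 against 725 and 548 (−2.53 ± 0.545, limma, adjusted p = 0.0062). None of these overlapped. Sprr2k went the other way, with 324 to 1244 against 10.2 and 33.1 (4.98 ± 0.813, limma, adjusted p = 0.0015).

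The other 23 genes did not pass. Several of these lay wholly below BBN963 in UPPL1541, such as Cnfn (−1.25 ± 0.556, limma, adjusted p = 0.11) and Lce3c (−1.43 ± 0.513, limma, adjusted p = 0.057). How often all genes separate in this way was not counted. Ivl lay wholly above (0.71 ± 0.416, limma, adjusted p = 0.22). Tgm1 was 3738, 5741, 3573 and 4263 in UPPL1541 and 3288 and 4034 in BBN963 (0.22 ± 0.546, limma, adjusted p = 0.79). Lor and Sprr1b overlapped between lines (−0.25 ± 0.497 and 0.18 ± 0.678, limma, adjusted p = 0.74 and 0.87). The suprabasal keratins Krt1 and Krt10 also differed between the lines, at 98390 to 198344 against 773 to 1423 for Krt1 (log2 difference 7.02, limma, adjusted p = 3.4e-07), and Krt10 differed by 7.25 (limma, adjusted p = 2.9e-07); the other 6 keratins of the list did not pass. All 4 superficial urothelial markers tested were higher in UPPL1541 (median log2 difference 4.4), as were 3 of 7 fibroblast markers (median 1.88) and 2 of 8 basal and pan-epithelial markers. Of 7 leukocyte markers 1 was higher and 1 lower, and of 5 smooth muscle markers 1 was lower; their part in the differences of the envelope genes was not tested. Leaving out BBN963-derived tumour 1 cut the number of genes lower in UPPL1541 from 9 to 4, and leaving out UPPL1541-derived tumour 3 or 4 cut the number higher from 2 to 1.

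MB49-derived tumours stood apart from both lines. Of 34 genes tested 32 were higher in UPPL1541-derived and 30 in BBN963-derived tumours, and none was lower. A gene was tested if it reached 10 units in 2 line-derived tumours of any line. Genes at 0 in every MB49 tumour thus entered the test through the other lines, and they could not come out lower. The background was 27.3% higher and 22.6% lower (49.9% either way) for UPPL1541, and 15.8% and 26.1% (41.9% either way) for BBN963. The 2 comparisons share the MB49 tumours. Over all genes the medians were 0.049 and −0.24, and for the envelope genes 7.95 and 9.05. For BBN963 against MB49 37.7% of called genes were higher, and 50.8% with edgeR; 30 envelope genes were higher under every scaling.

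Ivl, Lor, Rptn, Crnn, Sprr2e, Sprr2g, Sprr2h, Sprr2i, Sprr2b and all 4 Lce3 genes were listed at 0 in each of the 4 MB49-derived tumours. Ivl there against the UPPL1541 tumours had an adjusted p of 1.5e-09 and Lor one of 8.1e-09 by limma. Both genes entered the test through the other lines and could not come out lower in UPPL1541, so these p-values add nothing to the listed values. Above 10 in at least 3 of the 4 MB49 tumours were Sprr1a (242, 391, 203 and 320.5), Sprr1b (16.7, 43.8, 106 and 149), Tgm1 (110.3, 51.6, 20.3 and 108) and Lce1g (18.7, 21.3, 6.4 and 25.6). UPPL1541-derived tumours exceeded the first 3 of these by 6.01 ± 0.209, 7.02 ± 0.553 and 6.13 ± 0.446 on the log2 scale (limma, adjusted p = 2e-09, 1.6e-06 and 8.5e-07). Lce1g did not pass in either comparison.

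Squamous genes outside the set also differed between the lines. All 14 scaffold and junction proteins, all 11 proteases, inhibitors and deiminases and all 8 suprabasal keratins were higher in UPPL1541, as were 10 of 12 differentiation regulators, among them Trp63, the master regulator of stratified epithelium (log2 difference 11.53, limma, adjusted p = 1e-06). Of 11 lipid enzymes 9 were higher and 1 lower, and of 13 neighbours and S100 genes 9 were higher and 1 lower. The simple-epithelium keratins Krt8 and Krt18 were lower in UPPL1541 than in MB49 (−3.92 and −4.16, limma, adjusted p = 1.1e-06 and 1.6e-08). All 7 leukocyte markers were lower in UPPL1541, with summed values of 7161 to 9284 in MB49 against 2562 to 4469 in UPPL1541 tumours, and 5 of 7 fibroblast markers were higher, with summed values of 74911 to 372774 against 15344 to 112013 in MB49; their part was not tested.

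Averaged over lines, most of the genes were lower in culture than in line-derived tumours. This did not hold for every gene in every line. Ivl and Lor were listed at 0 in both the MB49 culture and the MB49-derived tumours. Sprr2a1 was 3267 in the UPPL1541 culture, within the 2174 to 4449 of the UPPL1541-derived tumours. With line as a term, 28 of 33 genes were higher in line-derived tumours than in cultures and none was lower, against 20.1% and 8.99% of 14321 genes (29.1% either way). The median log2 difference was 4.06, and 0.134 for all genes. Of called genes 69.1% were higher, and 49.4% with quantile normalisation, 57.4% with edgeR; 26 to 28 envelope genes were higher under the 3 other scalings. The 5 that did not pass were Crnn, Tchh, Lce1a2, Lce1c and Lce1g. Each line has 1 culture, so spread between cultures of a line was not measured. The test rests on the spread between tumours of a line and on disagreement between lines in the tumour-culture difference. Genes under 10 units in every culture entered the test through the tumours, and could hardly come out lower in tumours. Without the UPPL1541 culture 7 genes passed and without the BBN963 culture 17.

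Sprr1b, another bridging protein, was 109 in the UPPL1541 culture, 319.95 in the BBN963 culture and 0.96 in the MB49 culture, and the tumours of each line lay above their culture (log2 difference 5.20 ± 0.53, limma, adjusted p = 1.1e-05). Cnfn was 13.1, 21.9 and 0 in the same cultures (6.07 ± 0.906, limma, adjusted p = 3e-04). Tgm1 was 1058, 206 and 0.96 (3.67 ± 0.535, limma, adjusted p = 0.00024), and Sprr1a 6385, 852 and 1.93 (4.37 ± 0.636, limma, adjusted p = 0.00024). Lce3f was 0, 1.22 and 0 (6.06 ± 1.32, limma, adjusted p = 0.0044), a call lost without the UPPL1541 culture. The weakest of the 28 included Ivl, at 210.1, 207 and 0 (1.39 ± 0.47, limma, adjusted p = 0.041), lost under 8 of 22 alternatives, and Sprr2a1 and Sprr2d, lost under 15 and 16. All 7 fibroblast markers, 6 of 6 leukocyte and 5 of 5 smooth muscle markers were also higher in tumours than in cultures. Summed fibroblast markers were 27.1, 94.9 and 1006 in the UPPL1541, BBN963 and MB49 cultures against 15344 to 372774 in the tumours; their part was not tested.

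Of the KT cultures KT1044 was the highest for many Sprr genes: Sprr1a was 26656, 3620 and 1588 in KT1044, KT1970 and KT1975, Ivl 12783, 1249 and 2036, Sprr2k 2468, 30.8 and 276, and Crnn 479.7, 22.0 and 1.78. All 4 Lce3 genes were listed at 0 in the 3 KT cultures. What KT stands for is not given in the sources used here, and no test was made on these lines.

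Primary tumour, culture and derived tumours that carry one number can be set side by side as values, without a test. For UPPL1541 Ivl was 31306 in the primary tumour, 210.1 in culture and 1062 to 1263 in the derived tumours. Sprr2f was 37977, 6.54 and 113 to 608 in the same order, Lor 341, 9.34 and 636 to 1681, and Tgm3 1.2, 0 and 488 to 983. Sprr2a1 was 154431 in the primary tumour, and its 3267 in culture lay within the 2174 to 4449 of the derived tumours. For BBN963 Ivl was 11079.9, 207 and 612 to 822, and Sprr2a1 was 25863, 354 and 46684 to 51959.6. Tgm3 was 0, 12.2 and 907 to 1854, and Lce3f 28.1, 1.22 and 1156 to 1543. Apart from Sprr2a1 under UPPL1541, each of these genes was lower in culture than in every derived tumour of its number. Under both numbers Ivl was lower in the derived tumours than in the primary tumour, and Tgm3 and the 4 Lce3 genes were higher. That a line came from the primary tumour of the same number is read from the labels only.

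**Figure D4:**
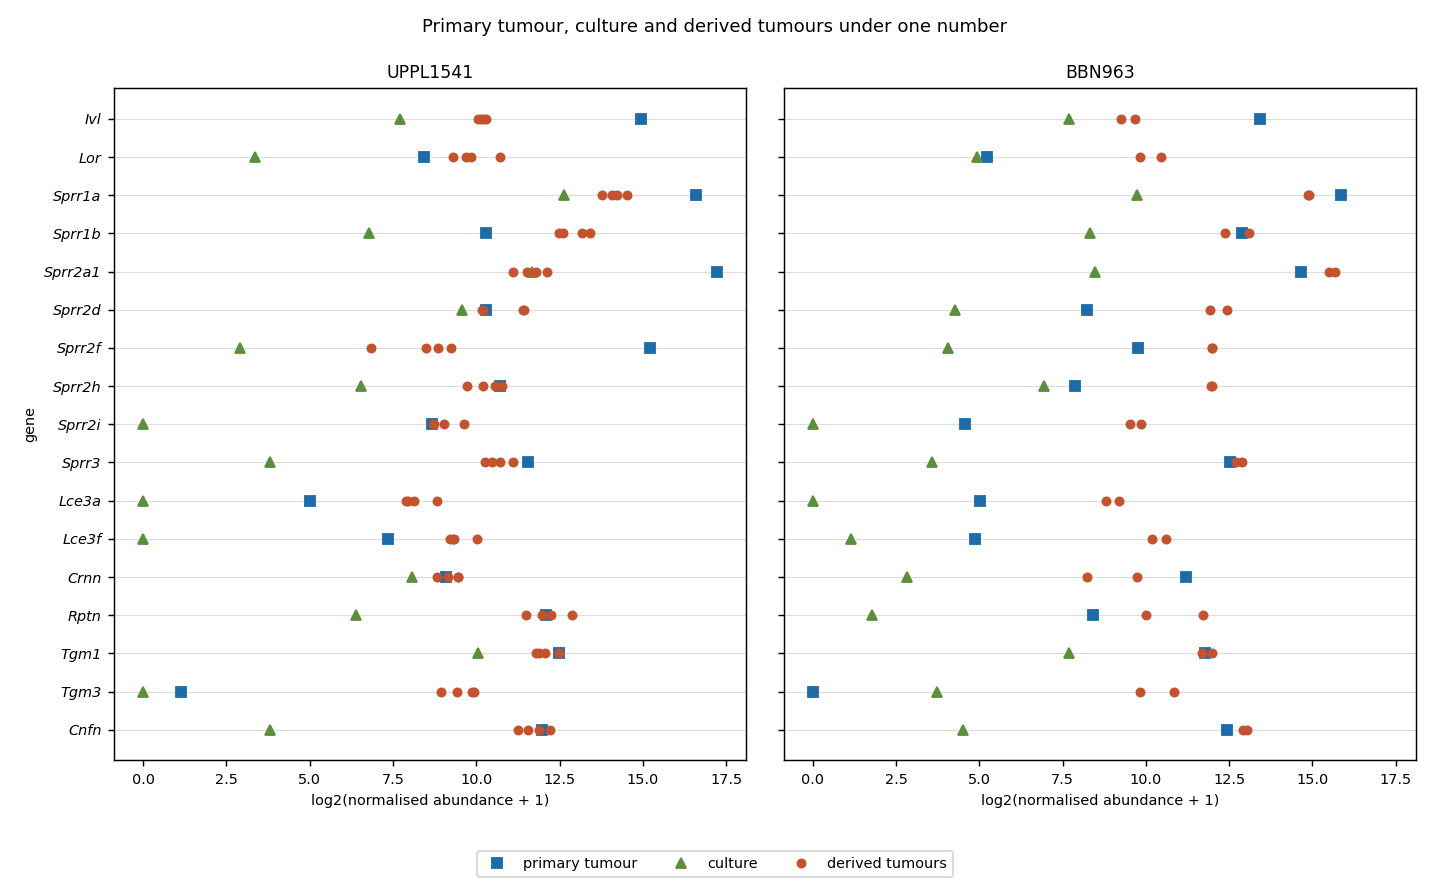
Log2(normalised abundance + 1) of 17 genes in the primary tumour (square), culture (triangle) and derived tumours (circles) that carry the number UPPL1541 (left) or BBN963 (right). Cultures lie lowest for most genes, but not for Sprr2a1 under UPPL1541 or Tgm3 under BBN963; Ivl is highest in the primary tumour of both series, and Tgm3, Lce3a and Lce3f are highest in the derived tumours.

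Within each primary model, tumour-to-tumour variation of Ivl was set against Tgm1, Sprr1a, Lor, the suprabasal keratin Krt1 and the uroplakin Upk2 on the log2 scale. None of the 10 correlations passed adjustment. The strongest was Ivl with Sprr1a over the 9 UPPL tumours (Pearson r = 0.77, exact permutation p = 0.014, adjusted 0.14; Spearman rho = 0.62, exact permutation p = 0.086, adjusted 0.72), and r was 0.82 without UPPL1591 and UPPL1694. In the 11 BBN tumours the same pair had r = 0.24 (permutation p = 0.50, adjusted 0.72) and rho = 0.47 (permutation p = 0.14, adjusted 0.72), and r was 0.71 without BBN962 and BBN972. Ivl with Tgm1 in UPPL had r = 0.62 (n = 9, exact permutation p = 0.10, adjusted 0.50) and rho = 0.02 (exact permutation p = 0.98); without the same 2 tumours r was 0.12, so that relation rests on them. The other 7 had r from −0.29 to 0.46. Among these, leaving out BBN962 and BBN972 turned r for Ivl with Tgm1 in BBN tumours from −0.23 to 0.51 and for Ivl with Upk2 from 0.26 to −0.26, and r for Ivl with Lor and with Krt1, at −0.02 and −0.05, became 0.42 and 0.39.

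Lce1 and Lce3 values are less certain than most, since 9.2% to 25.4% of the 50-base stretches of Lce1a1 to Lce1l and 12.1% to 48.0% of those of Lce3 transcripts also occur in other members of their family. Low genes near 0 carry few reads, and a listed 0 means that a gene was not detected at this depth.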

How the data were processed

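RNA of 36 mouse libraries was sequenced (TruSeq Stranded mRNA kit and RNeasy extraction, per the labels' protocols). The authors deposited 1 table of signal values for 21705 genes: RSEM gene estimates in which, as the values show, the upper quartile above 0 is 1000 in each library. RSEM, SAMtools, Picard 1.64 and the mm9 genome are named, with no role given, per the submitters' processing notes; the aligner, and whether counting used strand, are not given in the sources used here. Columns headed KAT were matched to the KT cultures by number. Low values were whole multiples of what 1 read is worth, and 92.0% to 96.3% of values came out within 0.02 of a whole read.

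Differences were tested on log2(value + 1) by limma with a variance trend (version 3.58.1, under R 4.3.3), over genes of at least 10 units in as many libraries as the smallest group holds, with Benjamini-Hochberg adjustment over all of them and a threshold of 0.05. The primary models had a fit of their own, the line-derived comparisons shared 1 fit, derived and primary tumours of both models shared 1 fit, and derived tumours were compared with cultures with line as a term. edgeR 4.0.16 on recovered reads was an alternative, beside other pseudocounts, filters, scalings, weights and left-out libraries. The script was tested on simulated data. Closest replicate libraries differed far beyond counting noise (chi-square per degree of freedom at least 19.9), so none were merged.

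The genes and lists were chosen with earlier results of these data known. Genes named in full are Ivl, Lor, Tgm1, Tgm3, Sprr1a, Sprr1b, Sprr3, Cnfn and Crnn, with up to 6 further genes of the largest change past the threshold, provided the higher group averaged 100 or more; others are named for their family or because they were the only ones called, after their values were seen. Correlations used exact permutation, or 100000 permutations for 10 or more tumours. Promoter windows came from RefSeq, whose build (GRCm38.p6) is not that of the table, and no coordinate of the table was used. Part of the UPPL genotype label and 1 gene of the regulator list are not reported here.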

Additional observations from a re-analysis of the deposited data

Results flagged for a closer look

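In 56 sets, each 1 gene in the UPPL primary, UPPL1541-derived or MB49-derived tumours, a single library far from its group was sought. The other groups were not compared. Among these is BBN974, the lowest BBN primary tumour for Cnfn, Crnn and Rptn, each at 3.62. BBN974 was also the lowest for Sprr1a at 723.33, and Sprr1b and Sprr3 were listed at 0.0 there. Of the 56 sets 14 held such a library. The critical values set apart about 1 in 20 sets of independent normal values. That share does not apply here, since 1 tumour enters many sets and some sets lie at or near 0. UPPL1694 accounted for 9 of the 14 sets. It was the lowest UPPL primary tumour for Cnfn at 3.0 (the others ran from 745.78 to 17762.98), for Sprr2d at 19.98 (493.24 to 7353.72), for Sprr2f at 431.57 (11117.02 to 37977.27), for Sprr2g at 138.86 (1566.59 to 7623.21) and for Tgm1 at 22.98 (2016.37 to 14814.9). Sprr2e, Sprr2h and Sprr3 were listed at 0.0 there, against lowest values of 117.3, 171.94 and 1359.78 in the other UPPL tumours. Sprr2b was highest there, at 5.0 against at most 1.17. Summed basal and pan-epithelial markers were also lowest in UPPL1694, at 119177; their part in these values was not tested.

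Lce3f was 1048.24 in UPPL1541-derived tumour 2 and 589.78 to 639.48 in the other 3. In MB49-derived tumour 3 Sprr2d, Sprr2f and Tgm3 were each 1.07 and listed at 0 in the other 3, a gap of about 1 read. Sprr3 was 0.0 in MB49-derived tumour 4 and 1.04 to 1.12 in the others.

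The change from primary to line-derived tumours differed between UPPL1541 and BBN963 for 3 of 39 genes (7.69%) by limma's interaction test. Over all genes the share was 9.22%. The 3 were Sprr2a1 by −5.61 (adjusted p = 2.6e-05), Sprr2f by −6.08 (adjusted p = 0.025) and Flg2 by 5.13 (adjusted p = 0.0069), UPPL minus BBN on the log2 scale. Sprr2f and Flg2 each lost the call under some alternatives. With 1 line for each model the test does not reach the models at large.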

How the results depend on the processing

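The counts against MB49 kept their direction and stayed within 1.5 times under every setting run (31 to 32 genes higher for UPPL1541 and 30 for BBN963 when single libraries were left out); other comparisons moved more, and the cause was not tested except where fewer samples or genes entered a fit. The number higher in UPPL primary tumours, 5, was 3 with no filter, no variance trend or edgeR and 2 without the coarse libraries or without the primaries whose numbers the lines carry; Tgm1 turned to 0.16 with array weights and 0.22 with edgeR. For UPPL1541 against BBN963, the 9 lower became 15 with pseudocount 10, 14 with edgeR and 5 without coarse libraries, and the 2 higher became 1 with a stricter filter or edgeR. There Crnn turned to −0.06 (quantile), −0.11 (edgeR) and −0.5 (no coarse libraries), Sprr1b to −0.02 (median-of-ratios) and −0.03 (edgeR), and Lor to 0.05 (no coarse libraries). From UPPL primary to derived, the 13 that rose were 7 with quantile normalisation and 4 with edgeR; with array weights 5 fell in place of 3 and 6548 genes in all were called in place of 4039. With edgeR Tgm1 turned to −0.15, Cnfn to −0.36 and Crnn to −0.05, and Sprr3 was 0.01 without coarse libraries. From BBN primary to derived, the 4 that rose were 12 with pseudocount 10, 2 with a stricter filter or edgeR, 7 with quantile normalisation, 9 with array weights and 0 without coarse libraries; all genes called, 1182, became 1810 with array weights, 729 with edgeR and 309 without coarse libraries. Crnn turned to 0.11 (quantile and median-of-ratios), 0.01 (array weights), 0.73 (no coarse libraries) and 0.19 (without same-numbered primaries). In the interaction, the 1 higher became 0 with a stricter filter, quantile normalisation, edgeR or no coarse libraries, and the 2 lower became 4 with array weights and 1 without coarse libraries; all genes called, 1404, became 775 (quantile), 2740 (array weights), 412 (edgeR) and 299 (no coarse libraries), Tgm1 turned to 0 (array weights) and −0.17 (edgeR), and Lor to −0.25 (edgeR). Against cultures array weights called 2134 genes in place of 4163.

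Leaving out single libraries gave these ranges. Genes called in all ran from 1899 to 2527 between primary models, 2555 to 4436 for UPPL1541 against BBN963, 2972 to 4217 for UPPL derived against primary, 232 to 1520 for BBN derived against primary, 296 to 1680 for the interaction and 3117 to 4285 against cultures. Envelope genes higher ran from 2 to 8, 1 to 3, 7 to 16, 0 to 11, 0 to 1 and 7 to 30 in the same order, and lower from 0 to 1, 4 to 12, 3 to 3, 0 to 1, 1 to 4 and 0 to 0. Signs turned only for genes that had not passed, and their log2 differences ran as follows. Between primary models Cnfn ran from −0.62 to 1.22 and Tgm1 from −0.74 to 0.49. For UPPL1541 against BBN963 Lor ran from −0.55 to 0.05, Sprr1b from −0.18 to 0.53 and Crnn from −0.5 to 0.98. From UPPL primary to derived Sprr3 ran from −1.51 to 0.34, from BBN primary to derived Crnn ran from −0.76 to 0.71, and in the interaction Tgm1 ran from −0.27 to 0.96.

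Replicate numbers of line-derived tumours did not pair them: same-numbered libraries of different lines correlated between −0.09 and 0.06 in their deviations from the group means. With the replicate block, for UPPL1541 against BBN963, 4 envelope genes were lower and 1 higher, 2682 genes were called in all in place of 4208, and Sprr1b turned to −0.35; against MB49 the block left 32 and 30 genes higher. Values near 0, as for many Lce1 genes, rest on few reads, and low values are coarse in 5 libraries.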
